A study of Aspergillus niger with 4 samples.

Results

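The 100 genes that took the largest share of sequencing reads on maltose in the mould Aspergillus niger were followed into a mutant lacking hapX. They were chosen by their mean CPM (expected counts scaled to the same total in every library) over the 2 reference libraries, among genes with a coding length above 300 bases. The 100 genes come from 10898 genes listed in at least 1 library, of which 10641 passed the limit on length. The reference strain was N593 delta-kusA, with the alleles cspA1, pyrG- and kusA::amdS. The delta-hapX strain carried the same alleles and delta-hapX::hph. Both strains were pre-grown for 16 h in a complete medium with 2% fructose, then washed, and were frozen after 2 h on 25 mM maltose in minimal medium (50 ml, pH 6). Each strain had 2 libraries, a and b. The sources used here do not say whether these came from separate cultures or from 1 transformant, so p-values measure only the spread between libraries, which may be technical.

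The steady-state pool of messenger RNA in a growing fungus is uneven, and a small number of genes fill much of it. Genes for ribosomal proteins, translation factors, histones and the enzymes of glycolysis are typically among them, and on maltose or starch Aspergillus species also make much RNA for secreted starch-degrading enzymes under the activator AmyR. HapX is a bZIP protein that binds to the CCAAT-binding complex, best known in Aspergillus for repressing iron-consuming pathways when iron is scarce. Loss of kusA hinders end joining of DNA and so favours targeted integration, pyrG- strains cannot make uridine and need it supplied to grow, cspA1 shortens the conidiophores, amdS encodes acetamidase and hph gives resistance to hygromycin. None of the 10898 identifiers matched the 1 table of gene names used here (0 matched), and the files pair no identifier with a name or a function. The 100 genes are therefore given by identifier, and neither their roles nor the level of hapX itself are reported. Sequences of the genes were not used here.

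In the reference the 100 genes, 0.918% of all listed genes, held 31.1% of the counts of library a and 32.2% of those of library b. The first 10 held 11.4% and 12.02%, and the first 50 held 23.5% and 24.7%. The mean level of the 100 genes ran from 1142 to 20423 CPM with a median of 1961 CPM. A total of 5 genes lay above 10000 CPM, 18 above 4000 CPM, and 50 lay below 2000 CPM. The steepest drop came between rank 5 (13717 CPM) and rank 6 (8891 CPM). CPM is a share of reads, so a long transcript scores higher than a short one at the same number of molecules. Library totals ran from 3505555 to 4264311 expected counts. The lowest count of any of the 100 genes in any library was 1405, and all 100 passed the filter on low counts.

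NRRL3_00799, with a coding length of 1254 bases, took the most reads in both reference libraries. Its level was 17698 CPM in reference a and 23149 CPM in reference b. NRRL3_05251 (2973 bases) followed with 16540 and 15762 CPM, and NRRL3_07271 (1011 bases) with 14228 and 14199 CPM. The last of these differed by a factor of 1.002 between the reference libraries, NRRL3_00799 by 1.31. NRRL3_05725 (1710 bases) stood at 13430 and 14057 CPM and NRRL3_08108 (2325 bases) at 13733 and 13702 CPM. These last 2 changed places between the libraries, as their means lay closer together than the SD of NRRL3_05725 (444 CPM, n = 2). The same 5 genes led both reference libraries, and so did the same 10.

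The second group of 5 in the first 10 was more variable between the reference libraries. NRRL3_09549 (5382 bases) had 7481 and 10301 CPM, a factor of 1.38. NRRL3_08300 (1923 bases) went the other way, with 9897 and 7831 CPM, and NRRL3_07700 (2958 bases) had 7637 and 6992 CPM. NRRL3_08300 lay above NRRL3_07700 in both libraries. NRRL3_09549 was below both genes in reference a and above both in reference b, so its place is not resolved by the data. NRRL3_09550 (1485 bases) had 6727 and 7882 CPM, and NRRL3_06518 (1053 bases) closed the first 10 with 6201 and 6333 CPM.

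**Figure D1:**
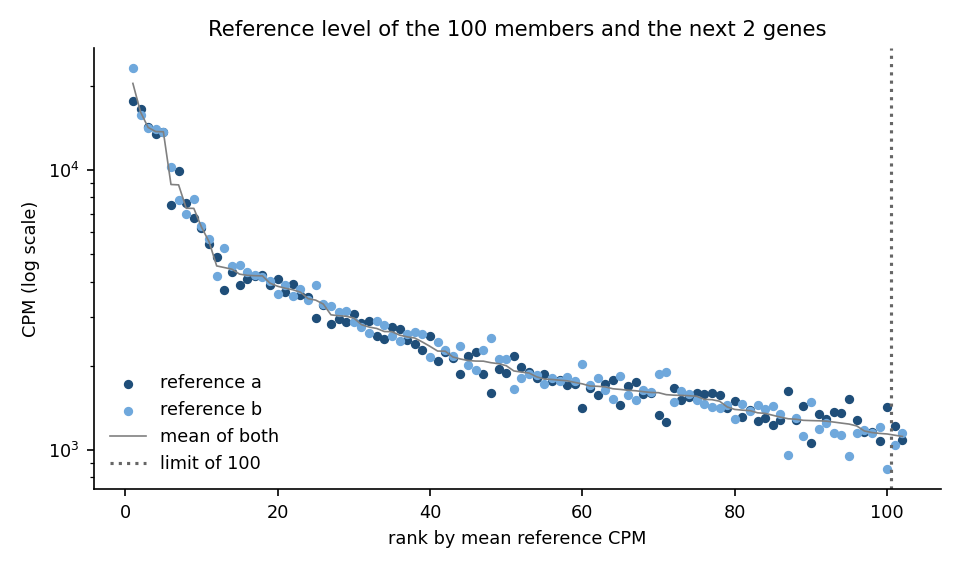
Level of each of the 100 genes, and of the next 2, in both reference libraries (points, CPM on a log scale) against its rank by the mean (line); the dotted line marks the limit of 100. The first 5 genes lie above 10000 CPM, and past rank 50 the curve falls slowly towards 1142 CPM at rank 100.

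Across the 100 genes the log2 ratio of the reference libraries had a median size of 0.13, against 0.20 over all 8535 genes tested. For the genes at ranks 101 to 200 it was 0.11, below that of the 100 genes. Most genes tested had far fewer reads, so the 0.13 is not read as a closeness particular to the 100 genes. The difference between the reference libraries was under 10% in 51 of the 100 genes and over 1.5-fold in 5. In 77 of the 100 genes it went beyond counting error (exact Clopper-Pearson 95% interval of the split of counts between the libraries, which covers counting error only). In delta-hapX this number was 70, and no gene (0 of 100) differed by over 1.5-fold between the libraries. Genes beyond counting error were not counted over all genes. At the read numbers of these 100 genes a small difference already exceeds counting error. The largest gap was that of NRRL3_00686 (3183 bases), with 1626 CPM in reference a and 963 CPM in reference b. NRRL3_03733 (1629 bases) came next, with 1428 and 857 CPM. Both owe their place to reference a, since their values in reference b lie below the mean of the last of the 100 genes.

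The limit of 100 fell in a dense stretch of values. NRRL3_04398 was ranked 99 with 1081 and 1214 CPM, and NRRL3_03733 was ranked 100. Just outside were NRRL3_11429 with 1216 and 1045 CPM and NRRL3_04796 with 1091 and 1148 CPM. The means on either side of the limit, 1142 and 1131 CPM, differed by less than the spread of either gene. Reference a alone would have chosen 97 of the 100 genes and reference b alone 94, and 91 genes were in the first 100 of both. The limit on length removed 257 genes, of which 2 had a mean above that of the last gene kept. These were NRRL3_03748 (282 bases; 1480 and 1679 CPM) and NRRL3_01646 (246 bases; 1250 and 1461 CPM).

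Per unit of length the order was different. In FPKM (reads scaled to gene length and to sequencing depth by the authors), 64 of the 100 genes were also among the 100 highest genes and 36 were not. NRRL3_00799 was first on this scale too, with 14056 and 18390 FPKM in reference a and b, and NRRL3_07271 second with 14116 and 14092 FPKM. In reference a the level of NRRL3_07271 was the higher of these 2, so the order of this pair is not resolved. NRRL3_01234, a short gene of 429 bases ranked 16 by CPM, held rank 3 with 10041 and 10697 FPKM. NRRL3_06103, the shortest of the 100 genes at 339 bases, held rank 4 with 8166 and 9211 FPKM although it ranked 33 by CPM. At the other end NRRL3_05011, the longest at 6381 bases, ranked 36 by CPM and 363 by FPKM, with 412 and 374 FPKM. The FPKM values divide by a length about 36 bases shorter than the listed one, which raises the shortest genes most.

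The coding length of the 100 genes had a median of 1336.5 bases, against 1356 for the genes tested and 1300.5 for all genes listed. The 8 genes under 600 bases held ranks 16 to 89 by CPM but 3 to 20 by FPKM. The 7 genes over 3000 bases ranked 6 to 87 by CPM and 77 to 486 by FPKM. Across the 100 genes FPKM and coding length had a Spearman rho of -0.62, which the division by length sets in part. Together the 100 genes held 27.9% and 29.3% of the summed FPKM of reference a and b.

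**Figure D2:**
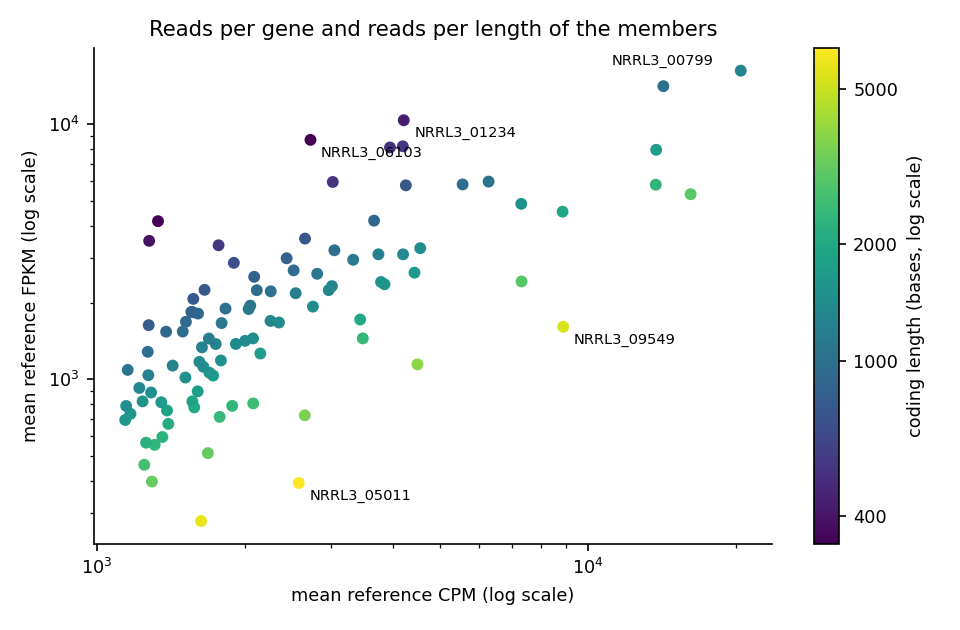
Mean reference CPM (x axis) and mean reference FPKM (y axis) of the 100 genes, both on log scales, coloured by coding length in bases. Short genes such as NRRL3_01234 and NRRL3_06103 lie high and long genes such as NRRL3_09549 and NRRL3_05011 lie low for their CPM.

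In delta-hapX the same 100 genes held 34.04% and 34.07% of the counts of libraries a and b, above both reference libraries. The mean share was 34.06% ± 0.0241 in delta-hapX and 31.6% ± 0.792 in the reference (SD, n = 2 each). The reference share was the one that chose the genes and no test was made. The 38 genes with a higher mean added 6.35 percentage points, and the summed share of the 62 with a lower mean fell by 3.92 points. NRRL3_08108 alone gained 1.71 of the net 2.42 points. Without it the remaining 99 genes held 29.7% and 30.8% of the reference libraries and 30.7% and 31.2% of the delta-hapX libraries, and the strains overlapped. On the scale of summed FPKM the 100 genes held 32.2% and 32.5% in delta-hapX.

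**Figure D3:**
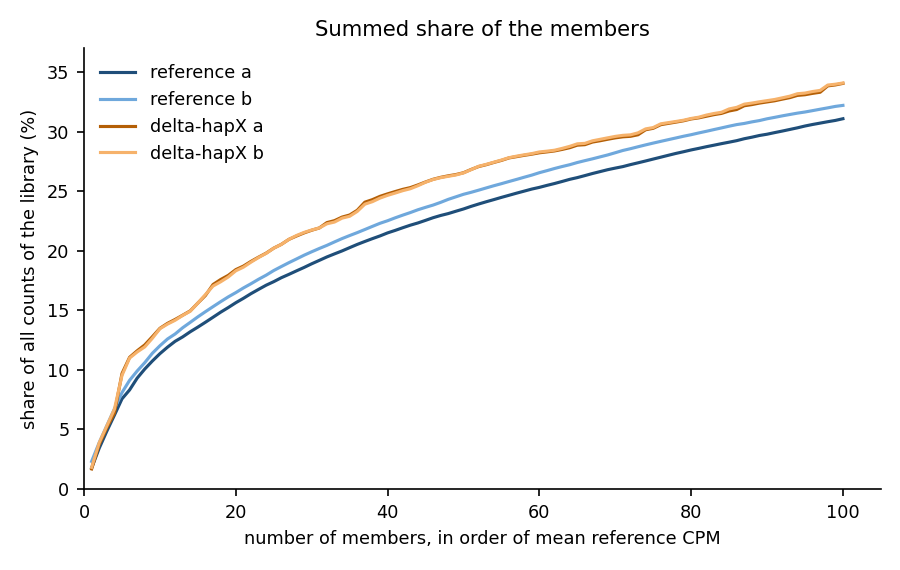
Share of all counts of a library (y axis, %) held by the first n of the 100 genes (x axis), added in order of mean reference CPM, with 1 line per library. Both delta-hapX lines end at 34.0% or just above, over the reference lines at 31.1% and 32.2%, and they part from the reference at gene 5.

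Deletion of hapX was accompanied by a change in 54 of the 100 genes, 21 higher and 33 lower in delta-hapX, and 46 did not pass the test (quasi-likelihood test of edgeR with n = 2 per strain, p adjusted by Benjamini-Hochberg over all 8535 genes tested, threshold 0.05). Of all genes tested, 26.6% passed, 12.2% as higher and 14.4% as lower. The reference values that chose the 100 genes are one side of this contrast, and a choice on high reference values leans the fold changes downwards, so nothing is read from the counts. In RNA of whole mycelium, fewer cells with a transcript and less of it per cell cannot be told apart. Chosen by reference a alone and measured against reference b alone, the 100 genes gave 23 higher and 37 lower, where 21.9% of all genes passed. With the reference libraries exchanged they gave 21 and 29, where 20.5% passed. In these fits, as in every fit without 1 library, the lone library of a strain is assumed to vary like those of the other strain. DESeq2's Wald test called 22 higher and 34 lower, where it called 17.5% of all genes to which it gave an adjusted p.

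Most changes were smaller than 2-fold. The median log2 fold change (delta-hapX over reference) of the 100 genes was -0.07, against 0.0011 over all genes tested. The middle of the distribution ran from -0.44 to 0.26 (quartiles), against -0.33 to 0.32 over all genes tested. Without regard to sign the median was 0.38 in the 100 genes and 0.33 over all genes tested. This difference was not tested. At least a 2-fold change was called in 11 genes, 6 higher and 5 lower, where 9.00% of all genes tested reached that limit. Among the genes that passed, the smallest change was 0.34 on the log2 scale, and among those that did not the largest was 0.42. With a median standard error of 0.13, no change below 0.34 passed in this fit even at these read numbers. That limit belongs to this fit and its threshold. The delta-hapX libraries lay on 1 side of both reference libraries in 78 of the 100 genes, 30 above and 48 below, where 63.5% of all genes tested were separated in this way. Across the 100 genes the fold change had a Spearman rho of 0.13 with mean reference CPM and of -0.013 with coding length. These are descriptions over genes measured in the same 4 libraries.

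**Figure D4:**
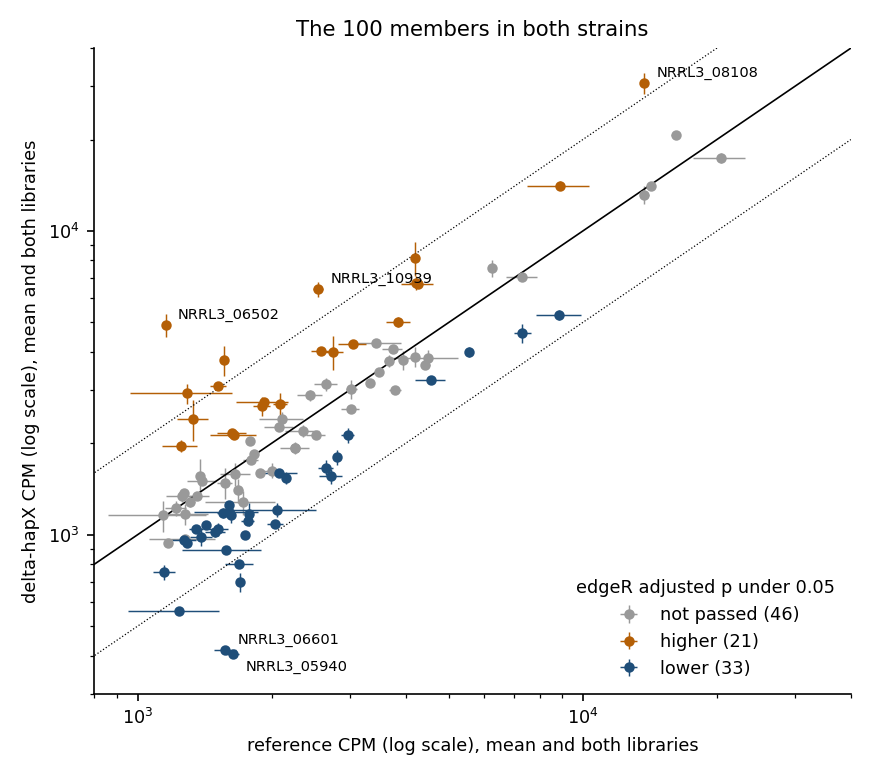
Mean CPM of the 100 genes in the reference (x axis) and in delta-hapX (y axis), both on log scales, with bars to the values of both libraries. The solid line marks equal levels, the dotted lines a 2-fold difference; 21 genes were higher, 33 lower and 46 did not pass.

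NRRL3_08108, at rank 5 in the reference, became first in both delta-hapX libraries with 33202 and 28355 CPM, against 13733 and 13702 CPM in the reference. Its means were 30779 ± 3427 and 13717 ± 21.3 CPM (SD, n = 2 each), a 2.24-fold rise (log2 fold change 1.18, SE 0.15, edgeR adjusted p = 1.29e-05). It thus took 3.32% and 2.84% of all counts of the delta-hapX libraries. The reference leader NRRL3_00799 had 16801 and 18090 CPM in delta-hapX, which overlaps its reference values, and held rank 3 there. Its log2 fold change of -0.21 did not pass (adjusted p = 0.37), and without reference a it was -0.41 with an edgeR adjusted p of 0.0303, the lowest over the alternatives, which reached 0.982.

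In 5 more of the leading genes no change passed the test. NRRL3_07271 had 14005 and 14030 CPM in delta-hapX, and the ratio of its means (delta-hapX over reference) was 0.986. NRRL3_05725 had 12262 and 14069 CPM and NRRL3_09550 had 6871 and 7233 CPM, with strains that overlap and log2 fold changes of -0.04 and -0.03. NRRL3_05251 lay higher in both delta-hapX libraries, at 20586 and 20731 CPM, but the difference of 0.37 on the log2 scale (SE 0.14) missed the threshold in edgeR (adjusted p = 0.0642). It passed with DESeq2's Wald test (adjusted p = 0.00599), with library totals alone, with no filter on low counts and without reference a, and over all alternatives its adjusted p ran from 0.00599 to 0.173. NRRL3_06518 had 7067 and 8049 CPM, above both reference values, and did not pass either (log2 fold change 0.29, edgeR adjusted p = 0.134).

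The remaining genes of the first 10 changed. NRRL3_08300 fell to 5485 and 5112 CPM, by 0.72 on the log2 scale (SE 0.14, edgeR adjusted p = 0.00112), and dropped from rank 7 to 14. NRRL3_07700 fell to 4949 and 4265 CPM, by 0.65 (SE 0.14, edgeR adjusted p = 0.00171), and from rank 8 to 17. NRRL3_09549 rose to 13622 and 14572 CPM, by 0.68 on the log2 scale (SE 0.16, edgeR adjusted p = 0.0045). The size of this rise was 0.45 without reference a and 0.94 without reference b. Of the first 10 genes, 2 rose, 2 fell and 6 did not pass, where 26.6% of all genes tested passed. Of these 10 genes, 8 were also among the first 10 of delta-hapX.

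The largest rise among the 100 genes was that of NRRL3_06502 (1062 bases). It stood near the limit in the reference, ranked 98 with 1164 and 1147 CPM, and had 5339 and 4489 CPM in delta-hapX, where it ranked 16. This is a 4.25-fold difference of the means (log2 fold change 2.11, SE 0.14, edgeR adjusted p = 8.85e-10). NRRL3_10939 (1164 bases) followed, from 2472 and 2606 CPM to 6794 and 6071 CPM and from rank 37 to 12 (log2 fold change 1.36, SE 0.13, edgeR adjusted p = 3.72e-07). Both genes were named as the largest rises that passed without overlap, so by that choice each delta-hapX library lay above each reference library. The gap between strains was larger than that between replicates. NRRL3_00686, the gene with the widest gap between the reference libraries, had 3146 and 2696 CPM in delta-hapX. Its log2 fold change was 1.19 (SE 0.18, edgeR adjusted p = 6.11e-05) and moved to 1.60 without reference a and 0.87 without reference b.

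The largest falls were those of NRRL3_05940 (1221 bases) and NRRL3_06601 (771 bases). NRRL3_05940 had 1694 and 1579 CPM in the reference and 408 and 401 CPM in delta-hapX, a 4.05-fold difference of the means (log2 fold change -2.00, SE 0.12, edgeR adjusted p = 5.09e-10). NRRL3_06601 had 1661 and 1482 CPM against 415 and 421 CPM, a 3.76-fold difference (log2 fold change -1.89, SE 0.12, edgeR adjusted p = 9.78e-10). Their ranks went from 66 to 352 and from 72 to 340. These 2 were the only genes of the 100 lower by 1.5 or more on the log2 scale. The short gene NRRL3_07533 (279 bases), which the limit on length and its level both keep out, went from 726 and 603 CPM to 171 and 169 CPM (log2 fold change -1.95, SE 0.12, edgeR adjusted p = 8.15e-10); it was named after its values were seen.

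Of the genes named for their FPKM, NRRL3_01234 passed the test, and NRRL3_00799 and NRRL3_07271 did not. Both genes named for their length passed. NRRL3_01234 rose to 6372 and 7111 CPM, from 4079 and 4345 CPM in the reference (log2 fold change 0.70, SE 0.14, edgeR adjusted p = 9.15e-04). Its 15725 and 17542 FPKM in delta-hapX were above the 13377 and 14399 FPKM of NRRL3_00799 in the same libraries, whereas in the reference NRRL3_00799 had the higher FPKM in both. NRRL3_06103, the shortest of the 100, fell from 2558 and 2884 CPM to 1647 and 1474 CPM (log2 fold change -0.78, SE 0.13, edgeR adjusted p = 1.81e-04). NRRL3_05011, the longest, rose from 2700 and 2452 CPM to 3959 and 4068 CPM (log2 fold change 0.66, SE 0.13, edgeR adjusted p = 8.71e-04). Of the 8 genes under 600 bases 2 rose and 2 fell, and of the 7 over 3000 bases 4 rose and 1 fell, beside 12.2% higher and 14.4% lower over all genes tested. These numbers are too small to compare, and nothing is read from them about length.

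The genes next to the limit did not move alike. NRRL3_04398, ranked 99, fell from 1081 and 1214 CPM to 795 and 710 CPM (log2 fold change -0.59, SE 0.12, edgeR adjusted p = 0.00154). NRRL3_03733, ranked 100, had 1295 and 1024 CPM in delta-hapX, within its reference range. Just outside, NRRL3_11429 rose to 1434 and 1538 CPM (log2 fold change 0.41, SE 0.12, edgeR adjusted p = 0.0188) and entered the first 100 of delta-hapX. That call was lost by limma on log2 FPKM (adjusted p = 0.0516 with the filter and a pseudocount of 1) and without reference b or delta-hapX b, and over the alternatives its adjusted p ran from 0.00366 to 0.142. NRRL3_04796 had 1082 and 1071 CPM and did not pass.

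The 100 most abundant genes of delta-hapX, taken by the same rule, shared 81 genes with those of the reference, or 81% of each list. Of the 81 shared genes, 21 were higher, 16 lower and 44 did not pass. Over all genes tested 26.6% passed, 12.2% as higher and 14.4% as lower. The 19 genes that left the list held reference ranks 49 to 99 and delta-hapX ranks 102 to 352. Their log2 fold changes ran from -2.00 to -0.30, and 17 of the 19 passed the test. The 19 genes that entered had reference ranks from 101 to 2955 with a median of 121. Their log2 fold changes ran from 0.22 to 4.78, and 15 passed. Leaving or entering the list largely sets these directions. Between the libraries of 1 strain the first 100 shared 91 genes in the reference and 94 in delta-hapX.

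The calls are given here by band of rank, beside 26.6% called and 9.00% called at 2-fold or more over all genes tested. Among ranks 11 to 50, 9 genes were higher and 10 lower, and 1 of the 19 reached 2-fold. Among ranks 51 to 100, 10 were higher and 21 lower, and 9 reached 2-fold. The next 100 genes, at ranks 101 to 200 (723 to 1131 CPM), had 13 higher and 34 lower, of which 2 higher and 18 lower genes reached 2-fold. The differences between these bands were not tested. The median log2 fold change was -0.07 for ranks 1 to 100 and -0.17 for ranks 101 to 200.

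Some of the 100 genes had neighbouring identifier numbers. Whether there were more or fewer of these than in a random choice of genes was not tested. Of the 100 genes, 5 stood in 2 runs of consecutive numbers, and the longest run held 3 genes. These were NRRL3_09548, NRRL3_09549 and NRRL3_09550, ranked 27, 6 and 9, with NRRL3_09546 (750 bases), ranked 15, separated from them by 1 number. NRRL3_09548 (954 bases) rose from 2823 and 3264 CPM to 4197 and 4266 CPM (log2 fold change 0.49, SE 0.13, edgeR adjusted p = 0.0101). NRRL3_09546 rose from 3904 and 4604 CPM to 6558 and 6867 CPM (log2 fold change 0.68, SE 0.14, edgeR adjusted p = 0.00142). The neighbours in number that are outside the 100 were taken from both sides of the run. NRRL3_09547, ranked 112, rose from 918 and 1178 CPM to 1533 and 1525 CPM (log2 fold change 0.56, edgeR adjusted p = 0.00462). NRRL3_09545, ranked 232, rose from 667 and 599 CPM to 841 and 810 CPM (log2 fold change 0.40, edgeR adjusted p = 0.0156).

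The last gene of the run did not follow. NRRL3_09550 had 6871 and 7233 CPM in delta-hapX, between its reference values, and the next gene in number, NRRL3_09551, was at 216 and 195 CPM in the reference and 179 and 149 CPM in delta-hapX (log2 fold change -0.31, edgeR adjusted p = 0.0722). The reference libraries differed in 1 direction over 5 of these numbers: from NRRL3_09546 to NRRL3_09550 reference b was higher by factors of 1.16 to 1.38, whereas it was lower for NRRL3_09545 and NRRL3_09551 (ratios of 0.898 and 0.902). The part of that spread in the difference between strains was not tested. The delta-hapX libraries differed by factors of 0.995 to 1.07 over the same 5 genes. Without reference a the log2 fold changes of NRRL3_09548, NRRL3_09549 and NRRL3_09550 were 0.38, 0.45 and -0.16. Without reference b they were 0.61, 0.94 and 0.096. The other run, NRRL3_10102 and NRRL3_10103, had log2 fold changes of 0.38 (edgeR adjusted p = 0.044) and 0.33 (edgeR adjusted p = 0.103). Whether the numbers follow the order on the chromosomes is not given in the sources used here.

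**Figure D5:**
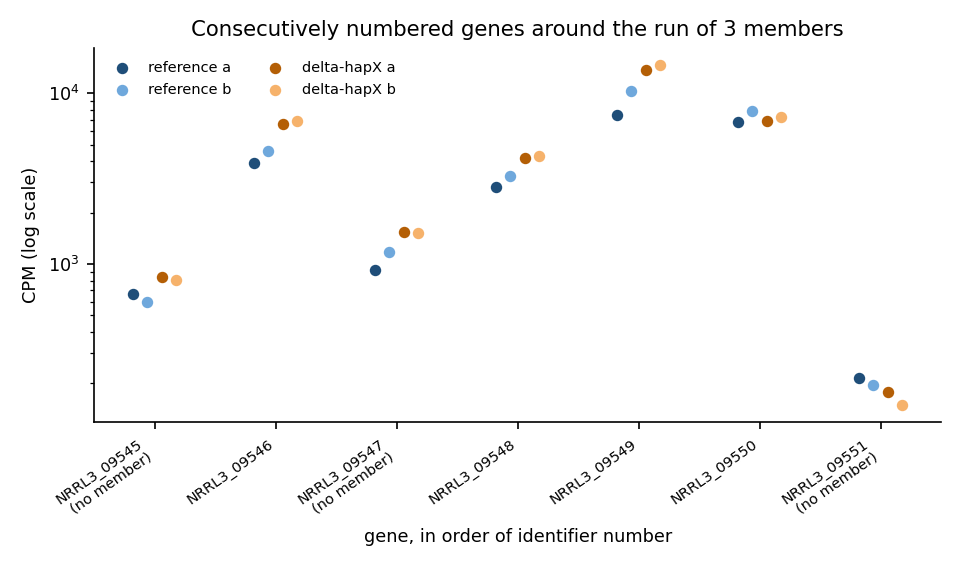
CPM (log scale) of 7 consecutively numbered genes in the 4 libraries; the 3 marked genes are outside the 100. From NRRL3_09545 to NRRL3_09549 both delta-hapX libraries lie above both reference libraries, at NRRL3_09550 the strains overlap, and at NRRL3_09551 both delta-hapX libraries lie below.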

How the data were processed

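RNA from 4 libraries was read single-end by Illumina HiSeq sequencing and mapped to the A. niger NRRL3 genome, per the labels' protocols and the series' design text. Bowtie2 and HISAT are named, per the submitters' processing notes. The tool that counted, the annotation release, strandedness and filters are not given in those sources. Per the file headers, the deposited tables hold for each gene its length, the expected count (estimated reads, without normalization) and the FPKM that the authors computed. Listed lengths are multiples of 3 and hence coding lengths. Genes absent from a table were counted as 0. Of the 100 genes, 1 had a count that was not whole.

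CPM was the expected count divided by the column sum and scaled to CPM. Tests used counts rounded to whole numbers in edgeR 4.0.16 (R 4.3.3; quasi-likelihood, group as the only term, TMM factors of 0.985 to 1.02, filterByExpr, Benjamini-Hochberg adjustment at 0.05 over 8535 genes); each standard error is the fold change over the root of F. Fits were tested on simulated data. Alternatives were DESeq2 1.42.0, limma 3.58.1, other scalings and filters, a block, other choices of the 100 genes and leaving out each library. With a filter of FPKM 1 in 2 libraries, limma was run on log2(FPKM + 1) or log2(FPKM + 0.1). Without that filter it was run on log2(FPKM + 1) only.

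Named genes were the 10 highest by CPM, the 3 highest by FPKM, the 2 largest rises and 2 largest falls that passed without overlap, those at the limit, the shortest and longest, the 2 with the widest gap between reference libraries and the longest run of identifiers, with neighbours of that run added later. The genes and rules were chosen with earlier results of these data known.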

Additional observations from a re-analysis of the deposited data

How the results depend on the processing

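Of the 54 calls among the 100 genes, 0 changed sign in the 13 alternative fits, which all reuse the same libraries. Calls were lost without a change of sign. Limma lost 25 of the 54 without a filter. With the filter it lost 6 at a pseudocount of 1 and 8 at 0.1. Each other fit of all 4 libraries lost 0 or 1. The 21 higher and 33 lower genes became 9 and 20 by limma without a filter, on log2(FPKM + 1), where the 11 called 2-fold changes were still 11. The cause was not tested. The number changed at least 2-fold was 7 for genes chosen by reference library b with the fold change from reference library a, and 21 for genes chosen by FPKM, with 15 higher and 38 lower. Leaving out each library in turn gave 17 to 22 higher and 23 to 38 lower genes, and 9 to 12 with a 2-fold change. With the replicate letter as a block (the replicate block), 22 were higher and 35 lower. For the fits by limma, with the block and without a delta-hapX library, the share of all genes called is not given here. The genes chosen by FPKM stand beside 26.6% called, and 9.00% at 2-fold or more, over all genes tested. Nothing is read from these counts. The labels do not say that letters pair libraries, and the deviations of same-lettered libraries had a correlation of 0.0193 over 8535 genes, so no pairing was assumed. The shared number of 81 genes between the strains' first 100 was 77 by FPKM, 82 with no limit on length and 79 to 82 over pairs of single libraries.

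Some named genes that had not passed changed sign. Without reference b the log2 fold change was 0.0075 for NRRL3_00799, -0.27 for NRRL3_03733, 0.0084 for NRRL3_04796, 0.0063 for NRRL3_07271 and 0.096 for NRRL3_09550. Without delta-hapX a it was -0.12 for NRRL3_03733, 0.068 for NRRL3_05725, 0.015 for NRRL3_07271 and 0.019 for NRRL3_09550. With the filter of 10 counts it was 0.0020 for NRRL3_07271. Leaving out 1 library at a time, the lowest values were -0.41 for NRRL3_00799, -0.091 for NRRL3_04796, -0.16 for NRRL3_05725, -0.019 for NRRL3_07271 and -0.16 for NRRL3_09550, and the highest for NRRL3_03733 was 0.44 (without reference a, edgeR adjusted p = 0.0173). NRRL3_01234, NRRL3_09548 and NRRL3_09549 lost their call with limma and no filter (adjusted p of 0.0731, 0.0834 and 0.0612, each the highest over the alternatives).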
